A study of Arabidopsis thaliana with 12 samples.

Results

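The genes described here are the plastid-encoded genes of Arabidopsis thaliana, taken as every row of the deposited tables whose identifier starts with ATCG. There were 133 such rows among 32833. The tables give no names for them. A name was given where the length implied by a row's count and its length-scaled value equalled that of an annotated plastid gene in the TAIR10.1 reference, to within 0.5 bases or 0.1% of the length. In this way 73 rows matched 1 gene symbol each, covering 64 symbols. Another 32 had tRNA lengths, 14 had a length that several genes share, and 14 matched no gene. Notes in the reference name 7 of the identifiers, as a protein match or as the source of a pseudogene. For 5 of them the note's description names the gene found by length. ATCG00430 is described there as photosystem II reaction centre protein G and was matched here to ndhK. ATCG00420 is named there without a description and was matched here to ndhJ. The genes psbA and psbD share a coding length of 1062 bases, so the rows ATCG00020 and ATCG00270 are each called psbA or psbD, both reaction centre proteins of photosystem II. Among single-copy rows matched to 1 gene, identifiers run in order along the genome. ATCG00020 comes before rps16, ATCG00270 just before psbC, and ATCG00130 and ATCG00140 between atpA and atpI. By that order they would be psbA, psbD, atpF and atpH, though names here rest on length alone.

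RNA was sequenced from seedlings harvested 12 days after germination. Per the labels, stratification lasted 4 days in the cold (4 °C), and plants were then kept on soil under long days, near 21 °C. Experiment 1 holds 3 libraries of wild-type Columbia-0 (Col-0) and 3 labelled hira-1, an allele of the gene for the histone chaperone HIRA. Experiment 2 holds 3 other Col-0 libraries and 3 of fas2-4, an allele of the gene for a subunit of chromatin assembly factor 1. The labels do not say how either allele changes its transcript, how many plants a library pools, or whether replicates came from separate plantings, so p-values measure the spread between these libraries, which may be technical.

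Plastids keep a small circular genome that encodes ribosomal and transfer RNAs, part of the ribosome, and a core set of subunits of the photosynthetic complexes, whose other subunits are encoded in the nucleus. Most photosynthesis genes are read by a bacterial-type RNA polymerase whose core, rpoA, rpoB, rpoC1 and rpoC2, is encoded in the plastid and whose sigma factors come from the nucleus. A phage-type polymerase from the nucleus reads others, the rpoB operon among them. Neighbouring genes are often transcribed together and then cut and trimmed by nuclear-encoded RNA-binding proteins. Because plastid mRNAs carry few stable poly(A) tails, the way a library is made affects how much plastid RNA it holds, and the labels do not say whether poly(A) RNA was selected.

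Stretches of the plastid genome (Pltd in TAIR10.1, from RefSeq) show the members on which the results turn. The coding sequences of psbI and psbM are those of the members that were higher in the hira-1-labelled libraries. Capitals mark the start and stop codons. The psbI gene lies at Pltd:7583-7693 on the plus strand and psbM at Pltd:28707-28811 on the minus strand. They have 111 and 105 bases and a GC content of 34.2% and 30.5%.
psbI: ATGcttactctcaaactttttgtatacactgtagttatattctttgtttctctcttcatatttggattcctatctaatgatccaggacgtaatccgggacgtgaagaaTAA
psbM: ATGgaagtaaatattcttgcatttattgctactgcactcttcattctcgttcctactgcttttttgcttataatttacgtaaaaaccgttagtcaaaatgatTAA

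The other pair shows how close genes that were lower lie to each other. At Pltd:52647-52676 on the minus strand, atpB runs into atpE, and capitals mark the 4 bases that belong to both coding sequences. At Pltd:39580-39607 on the minus strand, capitals mark the stop codon of psaA and the 25 bases after it lead to psaB. Reads across such junctions cannot be split between the neighbours with certainty, since the counting rule was not given in the sources used here.
atpB to atpE: gtaaattgaagaaATGAccttaaatctttg
psaA to psaB: TAAtggctaggaggatttgaaaggcatt

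Total counts per library were 20700171 to 21902258 in experiment 1 and 39258873 to 39510509 in experiment 2. HIRA (AT3G44530) was not lower in the hira-1-labelled libraries, with 223, 300 and 203 counts for Col-0 against 235, 286 and 454 there, a log2 difference (log2 fold change, mutant against Col-0) of +0.56 (SE 0.30, edgeR adjusted p = 0.198), or +1.49 (adjusted p = 0.0488) with the correction for gene length described further on. FAS2 (AT5G64630) had 273, 286 and 253 counts for Col-0 against 197, 207 and 281 for fas2-4, a log2 difference of -0.40 (SE 0.16, adjusted p = 0.156). Neither level checks its label. Of 6 root markers, 4 had no count in any library of experiment 1 and in experiment 2 Col-0 and fas2-4 each had 2 without a count, EXPA7 in both, and their summed level was 0.266 to 1.04 CPM (counts per 1000000 counts, TMM-scaled) over all libraries, while 5 markers of green tissue summed to 42225 to 70364 CPM. These 6 root markers were thus at or near 0, and other root genes were not examined.

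Plastid genes held a smaller share of the counts in the hira-1-labelled libraries than in their Col-0. The share was 0.437%, 0.446% and 0.289% in the Col-0 libraries of experiment 1 and 0.075%, 0.104% and 0.245% in those labelled hira-1. All 3 labelled hira-1 lay below all 3 Col-0, and the ratio of the means, 0.391% ± 0.088 against 0.141% ± 0.091 (SD, n = 3 each), was 2.77-fold. This log2 ratio of -1.47 ranged from -2.13, without hira-1 replicate 3, to -1.16 on leaving out 1 library. By the summed TMM-scaled TPM, which divides each gene by its length, the difference was 1.78-fold and the groups overlapped, with hira-1 replicate 3 at 2795 and Col-0 replicate 3 at 2698. In experiment 2 the share was 0.128%, 0.112% and 0.0831% in Col-0 and 0.108%, 0.0752% and 0.102% in fas2-4. These groups overlapped, with means of 0.108% ± 0.023 and 0.0951% ± 0.018. The exact binomial 95% interval of the largest share, 0.446%, was 0.443% to 0.448% and covers counting error only, so libraries differed by far more than counting error.

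Ribosomal RNA made up most of this signal, 87.3% to 90.8% of plastid counts in Col-0 of experiment 1 and 67.1% to 86.7% in the hira-1-labelled libraries. Without it the separation was clear in both experiments. The remaining plastid genes had 420, 408 and 366 CPM, here without TMM scaling, in Col-0 and 246, 254 and 325 in the hira-1-labelled libraries, 1.45-fold lower by the means. In experiment 2 they had 256, 232 and 239 in Col-0 and 180, 186 and 205 in fas2-4, 1.27-fold lower. The groups did not overlap in either experiment. With 3 libraries against 3, an exact permutation test cannot give a two-sided p below 0.1, so no test was made of the shares. In this seedling RNA, fewer green cells and less plastid RNA per cell cannot be told apart. The summed level of the green tissue markers, which are nuclear genes, was 55704 to 70364 CPM in Col-0 and 42225 to 45229 CPM in fas2-4 without overlap, and 54474 to 65443 CPM in Col-0 and 47697 to 56320 CPM in the hira-1-labelled libraries, with overlap. None of these 5 genes had 0 counts in any group. Their part in the plastid shares was not tested.

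**Figure D1:**
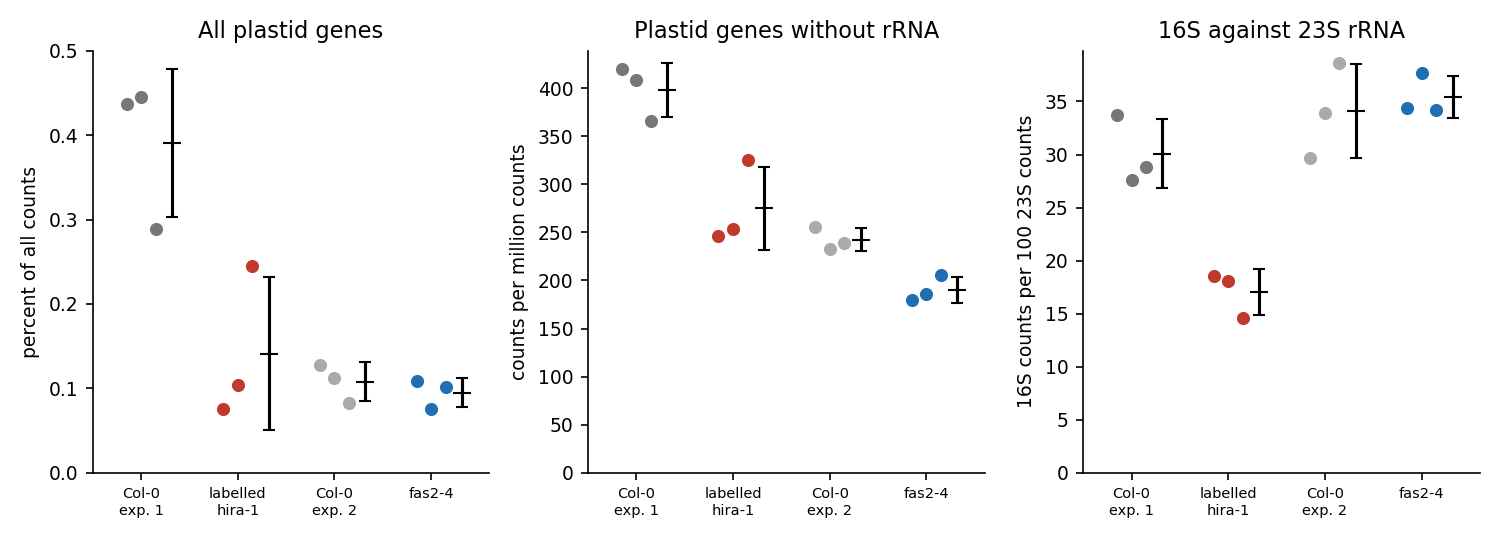
Plastid signal in each of the 12 libraries: percent of all counts in the 133 plastid rows (left), CPM without TMM scaling in the plastid rows other than rRNA (middle) and counts of 16S rRNA per 100 counts of 23S rRNA (right). Points are libraries and bars are the mean and SD of 3. Without rRNA the hira-1-labelled libraries (246 to 325) lie below their Col-0 (366 to 420) and fas2-4 (180 to 205) below its own (232 to 256), and the 16S to 23S ratio is lowest in the hira-1-labelled libraries.

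Not every member could be tested for a change. Filtering on low counts left 83 members tested in both comparisons, 3 in the hira-1 comparison only and 11 in the fas2-4 comparison only, while 36 passed in neither, 3 of them with no count in any library. Since a member can pass through the group in which it is high, counts below describe the members that passed and not all 133. Values per library are given as CPM scaled by edgeR's trimmed mean of M values (TMM) within each experiment, and log2 fold changes come from edgeR's quasi-likelihood test with Benjamini-Hochberg adjustment over all genes. A gene is called where the adjusted p is under 0.05.

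In the hira-1-labelled libraries, 22 of 86 plastid members tested were called lower and 2 were called higher. Some of these rows are near-identical copies of the same gene. With 1 row per copy pair, 17 of 75 were called lower and 2 higher, and their median log2 fold change was -0.27. Over all genes, 6.8% were called lower and 6.94% higher, 13.7% in all. The members called lower came from the rRNA, photosystem I, photosystem II, ATP synthase, Rubisco, RNA polymerase and ribosomal protein groups, with ycf2, a pair of tRNA-length rows and ATCG00760, whose length petG, psaI, rpl36 and rps12 share, and the pair called higher are small subunits of photosystem II. All 3 libraries labelled hira-1 lay below all 3 Col-0 libraries for 32 members (25 with 1 row per copy pair), against 19.2% of all genes, and above them for 4, against 19.4%. The log2 fold change was below 0 for 65 of the 86, against 51.2% of all genes, and 36 had an unadjusted p under 0.05, against 36.4% of all genes. The median log2 fold change of the members tested was -0.35, with -0.02 over all genes. Each of the 24 calls was kept on leaving out at most 3 of the 6 libraries, one at a time. Without Col-0 replicate 1, Col-0 replicate 2 or hira-1 replicate 1, 0 members were called, and 19, 50 and 29 genes in all. Without hira-1 replicate 3, 8 members were called, all lower. Replicate numbers were taken as pairs in this experiment from the data over all genes, not from the labels. Over the plastid members alone, same-numbered libraries showed little shared deviation (correlations -0.081, 0.207 and 0.080). With the replicate as a block, 30 members were called lower and 4 higher. That fit called 27.3% of all genes lower and 23.9% higher, and every count with the block in experiment 1 is to be read against these shares. DESeq2 called 25 lower and 2 higher, against 11.8% of all genes called lower.

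The Col-0 libraries of experiment 1 also stood apart from the other Col-0 libraries in these genes. For 21 of the 22 members called lower, CPM without TMM scaling was higher in all 3 Col-0 libraries of experiment 1 than in each of the other 9 libraries of the series. Both rows of a copied gene are counted here. Of the 1275 genes called lower over the whole table, 117 showed that pattern. The libraries labelled hira-1 had a lower mean than the Col-0 libraries of experiment 2 for 12 of the 22 members and for 1238 of the 1275 genes. The 2 experiments were deposited as separate tables and differ in depth, and their levels are set side by side here as a description only.

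The rRNAs are the most abundant plastid RNAs and form the core of the plastid ribosome. The inverted repeat of the plastid genome holds each of them in 2 copies, and the rows of a pair had almost the same counts in every library, so each pair is given once. The 16S rRNA of the small subunit (ATCG00920, Pltd:101012-102502 and Pltd:136147-137637) fell, from 487, 424 and 278 CPM in Col-0 to 40.5, 56.5 and 148 CPM in the hira-1-labelled libraries. The groups did not overlap, although hira-1 replicate 3 was well above the others. The log2 difference was -2.28 (SE 0.45, adjusted p = 0.025), a 4.86-fold difference. With the replicate block the call was lost (adjusted p = 0.132). Leaving out 1 library at a time kept the log2 fold change between -2.99 and -1.96.

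The 23S rRNA of the large subunit (ATCG00950) is the member with the most counts. It had 1442, 1537 and 966 CPM in Col-0 and 219, 314 and 1015 CPM in the hira-1-labelled libraries. Here hira-1 replicate 3 lay within the Col-0 range, and the log2 difference of -1.35 was not called (SE 0.50, adjusted p = 0.0899). The 4.5S rRNA (ATCG00960), which is cut from the end of the 23S precursor in plants, fell from 3.94, 5.81 and 1.9 CPM to 0.399, 1.02 and 1.57 CPM (log2 fold change -1.96, SE 0.54, adjusted p = 0.0444). There were 33.8, 27.6 and 28.8 counts of 16S per 100 counts of 23S in Col-0 of experiment 1, and 18.5, 18.04 and 14.6 in the hira-1-labelled libraries. The corresponding ranges in experiment 2 were 29.7 to 38.6 in Col-0 and 34.2 to 37.7 in fas2-4. All 3 libraries labelled hira-1 were therefore below the other 9, replicate 3 included.

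**Figure D2:**
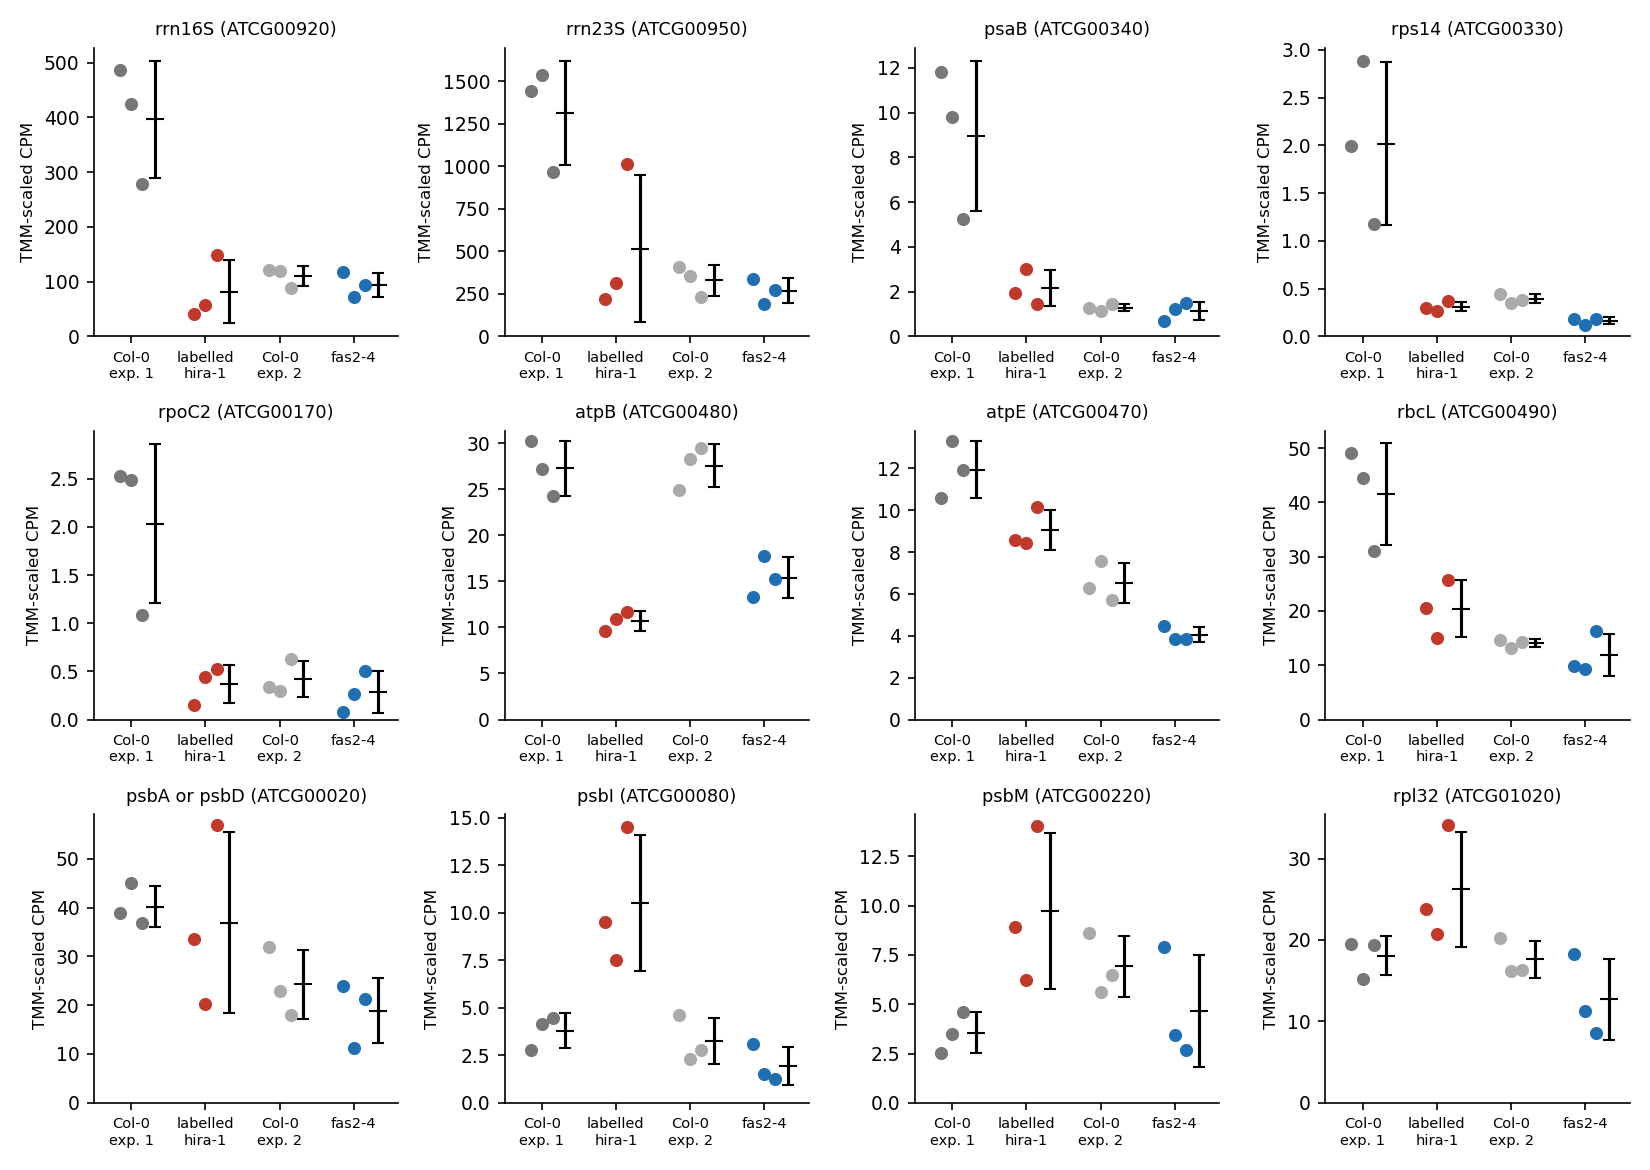
TMM-scaled CPM of 12 plastid genes in each library, scaled within each experiment. Points are libraries and bars are the mean and SD of 3. The 16S rRNA, psaB, rps14, rpoC2, atpB and rbcL are lower in all 3 libraries labelled hira-1 than in all 3 Col-0, psbI and psbM are higher, and atpB and atpE are lower in all 3 fas2-4 libraries.

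Genes of the plastid RNA polymerase were all below 0 in the hira-1-labelled libraries, and 1 of 4 was called. That gene was rpoC2 (ATCG00170, Pltd:15938-20068), which encodes a large catalytic subunit. It had 2.53, 2.48 and 1.08 CPM in Col-0 and 0.15, 0.445 and 0.522 CPM in the hira-1-labelled libraries. The groups did not overlap, and the log2 difference was -2.43 (SE 0.53, adjusted p = 0.029). Its counts were low, 3 to 10 in the hira-1-labelled libraries. The genes before it in the same operon had smaller differences, -1.36 (SE 0.51, adjusted p = 0.0898) for rpoC1 and -0.59 (SE 0.32, adjusted p = 0.211) for rpoB, the member of this group with the most counts. Both were called with the replicate block (adjusted p = 0.00322 and 0.00193). The annotated gaps are 26 bases between rpoB and rpoC1 and 182 bases between rpoC1 and rpoC2. With the correction for gene length, rpoC2 was not called (adjusted p = 0.0666), and with the replicate block added it was (adjusted p = 0.0134).

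Of 16 ribosomal protein members tested, 4 were called lower, or 6 with the replicate block and 1 higher, and their median log2 fold change was -0.35. The gene rps14 (ATCG00330, Pltd:36938-37240), for a protein of the small subunit, had the lowest log2 fold change of all members. It had 1.99, 2.88 and 1.17 CPM in Col-0 and 0.30, 0.267 and 0.365 CPM in the hira-1-labelled libraries. The difference was -2.68 (SE 0.46, adjusted p = 0.0217) and rests on 6, 6 and 7 counts in the lower group. Both rows of rpl2, a large-subunit protein gene in the inverted repeat, fell, and ATCG01310 went from 23.3, 22.1 and 25.1 CPM to 11.8, 11.7 and 15.2 CPM (log2 fold change -0.87, SE 0.18, adjusted p = 0.0274). The member of this group with the most counts, rpl32, had 19.5, 15.3 and 19.4 CPM in Col-0 and 23.8, 20.7 and 34.1 CPM in the hira-1-labelled libraries, in the other direction (+0.53, SE 0.22, adjusted p = 0.12). It was called with the replicate block (adjusted p = 0.00245).

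The large photosystem I genes fell together with rps14, their neighbour on the same strand. The gene psaB (ATCG00340, Pltd:37375-39579), for a reaction centre protein, had 11.8, 9.80 and 5.24 CPM in Col-0 and 1.95, 3.02 and 1.46 CPM in the hira-1-labelled libraries. Its partner psaA (ATCG00350, Pltd:39605-41857) had 12.0, 12.3 and 4.07 CPM and 2.80, 2.71 and 2.19 CPM. Neither pair of groups overlapped. The log2 fold changes were -2.05 for psaB (SE 0.38, adjusted p = 0.023) and -1.88 for psaA (SE 0.41, adjusted p = 0.0291). The annotation puts 25 bases between psaA and psaB and 134 bases between psaB and rps14. The small photosystem I gene psaJ, which lies elsewhere, had a log2 difference of -0.38 (SE 0.50, adjusted p = 0.596).

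Photosystem II genes went both ways. Of 11 tested, psbC (ATCG00280, Pltd:33720-35141), a core antenna protein, and ATCG00270 (psbA or psbD) were called lower, and psbI and psbM, the shortest of those called, higher. ATCG00270 had 7.91, 9.63 and 5.47 CPM in Col-0 and 3.64, 1.82 and 2.40 CPM in the hira-1-labelled libraries (log2 fold change -1.55, SE 0.34, adjusted p = 0.0288). The gene psbC had a log2 difference of -1.30 (SE 0.31, adjusted p = 0.0326). ATCG00020, the other row that is psbA or psbD and the member of this group with the most counts, had 38.8, 45.0 and 36.9 CPM in Col-0 and 33.5, 20.3 and 56.9 CPM in the hira-1-labelled libraries. These overlapped, and the log2 difference was -0.13 (SE 0.32, adjusted p = 0.796). The core antenna gene psbB was called with the replicate block alone (log2 fold change -0.74, adjusted p = 0.116 without the block and 0.00153 with it).

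The 2 members called higher encode short single-pass subunits of photosystem II. The gene psbI (ATCG00080) rose from 2.76, 4.17 and 4.47 CPM in Col-0 to 9.53, 7.51 and 14.5 CPM in the hira-1-labelled libraries. The gene psbM (ATCG00220) rose from 2.53, 3.50 and 4.61 CPM to 8.94, 6.22 and 14.0 CPM. Neither pair of groups overlapped, and hira-1 replicate 3 was the highest library for both. The log2 fold changes were +1.47 for psbI (SE 0.31, adjusted p = 0.0277) and +1.45 for psbM (SE 0.35, adjusted p = 0.0354). Together they took 1.91% ± 0.61 of the plastid counts other than rRNA in Col-0 and 6.99% ± 1.2 in the hira-1-labelled libraries. Both were picked because they were called higher here, so a rise in this share was built in. In experiment 2 the share was 3.95% ± 0.96 in Col-0 and 3.66% ± 2.1 in fas2-4, so Col-0 of experiment 1 had the lowest mean. The ranges met, with 6.06% in fas2-4 replicate 1 and 5.73% in hira-1 replicate 2. The gene next to psbI on the same strand, psbK, 380 bases away, had a log2 difference of +0.06 (SE 0.40, adjusted p = 0.919). With the correction for gene length, neither psbI (+0.58, adjusted p = 0.109) nor psbM (+0.55, adjusted p = 0.163) was called, and with that correction and the replicate block together both were (adjusted p = 0.0278 and 0.0426).

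Of 4 ATP synthase genes named by length, 3 fell. ATCG00130 (atpF or ycf4) and ATCG00140 (atpH or psaC), whose identifiers lie between those of atpA and atpI, were not called. Their log2 differences were -0.28 (edgeR adjusted p = 0.456) and +0.21 (adjusted p = 0.607). The gene atpB (ATCG00480, Pltd:52660-54156), for the catalytic beta subunit, had 30.3, 27.2 and 24.3 CPM in Col-0 and 9.58, 10.9 and 11.7 CPM in the hira-1-labelled libraries. The replicates were close and far apart between groups, and the log2 difference was -1.35 (SE 0.18, adjusted p = 0.0133), the smallest adjusted p of any member. The gene atpA, for the alpha subunit, had 11.5, 11 and 8.22 CPM and 2.85, 4.62 and 5.11 CPM (-1.29, SE 0.28, adjusted p = 0.0292), and atpI, for a membrane subunit, had a log2 difference of -1.29 (SE 0.34, adjusted p = 0.0413). The gene atpE, for the epsilon subunit, which shares 4 bases with atpB as shown above, had a smaller difference (-0.40, SE 0.20, adjusted p = 0.182, or 0.0442 by the fit with pairs as a block).

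The gene rbcL (ATCG00490, Pltd:54958-56397), for the large subunit of the carbon-fixing enzyme Rubisco, fell from 49.2, 44.5 and 31.1 CPM to 20.6, 15 and 25.7 CPM, a log2 difference of -1.03 (SE 0.25, adjusted p = 0.0353). The groups did not overlap. The 4 cytochrome b6f genes ranged from -0.31 to +0.03 and the 5 genes tested of the NADH dehydrogenase-like (NDH) complex from -0.76 to -0.05. With the length correction their medians were -0.79 and -0.77. In these groups 0 members were called by edgeR or DESeq2 and 0 had an unadjusted p under 0.05. The most counted of them were petA, for cytochrome f (+0.03, SE 0.30, adjusted p = 0.94), and ndhK (-0.38, SE 0.29, adjusted p = 0.352). Of 8 tRNA-length rows tested, 4 were called lower with the replicate block and 2 without it, ATCG00940 and its copy, at -2.03 (SE 0.52, adjusted p = 0.0381). The tRNA-length row with the most counts, ATCG00200, was at 0.00 (SE 0.49, adjusted p = 0.999). Among the remaining proteins, both rows of ycf2 were called lower (-1.25 and -1.31), but not with the length correction (adjusted p = 0.79 and 0.74), and cemA, for an inner envelope protein, had +0.33 (SE 0.25, adjusted p = 0.348). ATCG00140, which is atpH or psaC, had +0.21 (SE 0.29, adjusted p = 0.607).

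**Figure D3:**
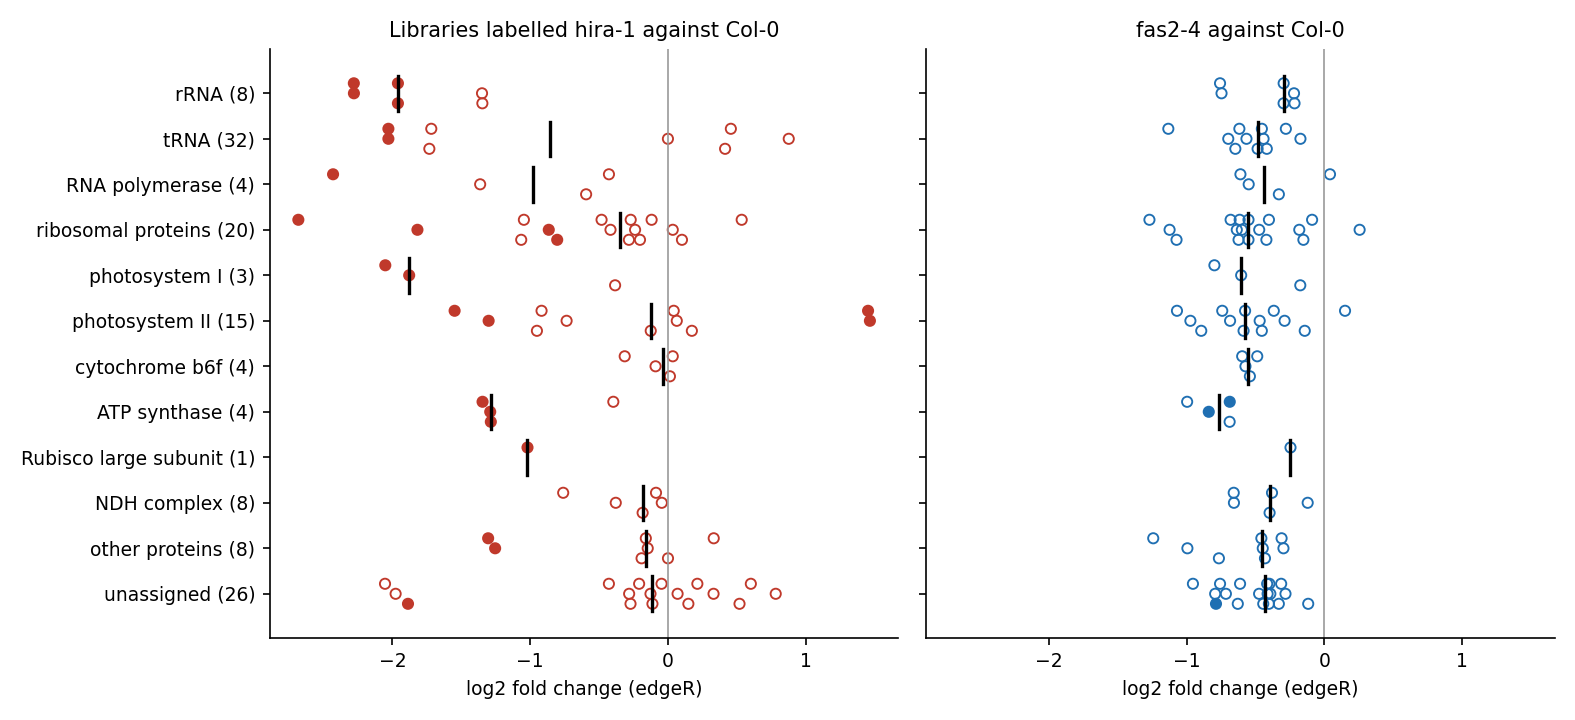
Log2 fold change of each plastid member tested, by role, in the hira-1-labelled libraries (left) and in fas2-4 (right), each against the Col-0 libraries of its experiment. Filled points were called (adjusted p under 0.05), open points were not, black bars are the medians of the members tested, and the number of members in the table stands in brackets. On the left the members spread from -2.68 to +1.47, and on the right from -1.27 to +0.26 with 3 called.

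Gene length moved with the log2 fold changes of experiment 1 over the whole table. Among 18633 nuclear genes tested, Spearman's rho between length and log2 fold change was -0.56, across genes, which are not independent replicates. Their median was +0.82 for 146 genes under 300 bases, +0.53 from 300 to 1000 bases, +0.16 from 1000 to 2000 bases and -0.44 for longer ones. The plastid members had lower medians in each class, -0.20, -0.33, -0.46 and -1.35, over 33, 26, 16 and 11 members. After a smooth trend on the length of nuclear genes was taken out, 27 members were called lower, 5.12% of all genes being called lower by that fit, and 0 were called higher. The median of the members was then -0.88. Across the 86 members themselves, rho was -0.24 before the correction and +0.20 after it, so the trend of nuclear genes did not match theirs. Lengths of named plastid rows are those of single annotated genes, although neighbouring plastid genes are often transcribed together. Length-corrected values of the members are to be read with these limits. In experiment 2 the rho of nuclear genes was -0.05, and the median of the members was -0.50 after the same correction and -0.51 before it. Only 146 nuclear genes tested were shorter than 300 bases, so the trend is least certain where psbI, psbM and the tRNAs lie. What sets the length trend was not tested.

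**Figure D4:**
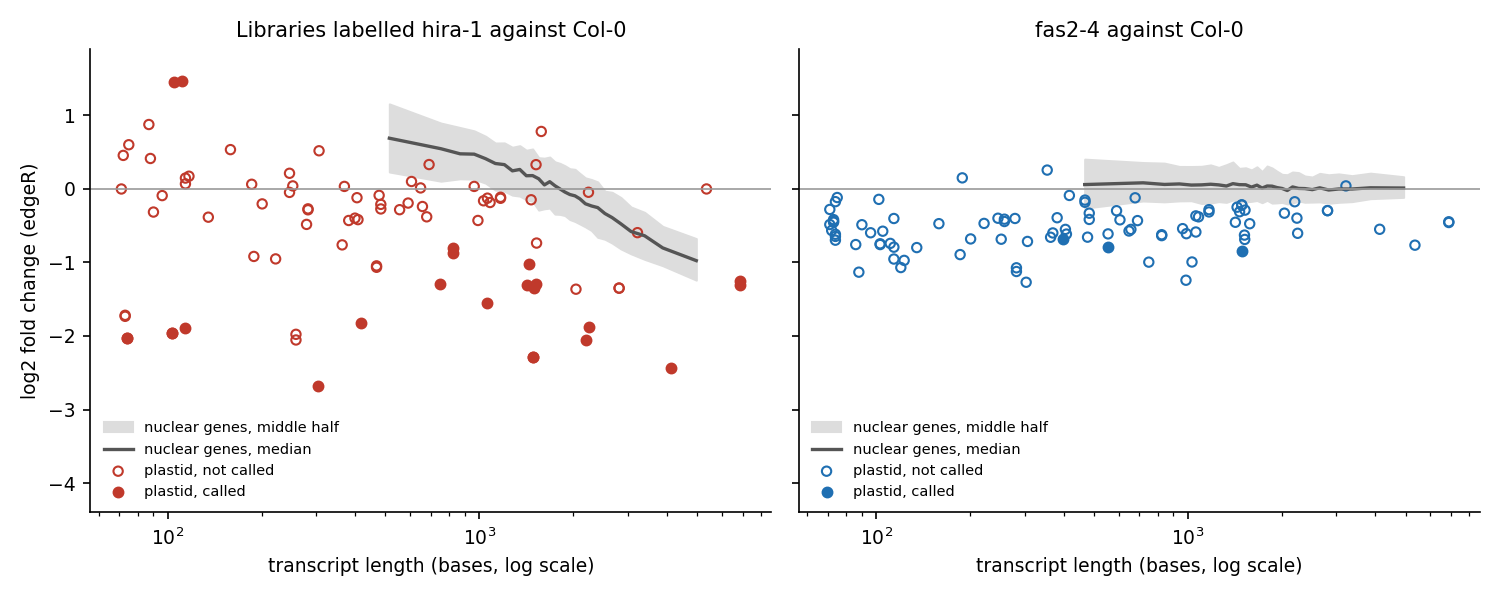
Log2 fold change against gene length (log scale) in the hira-1-labelled libraries (left) and in fas2-4 (right). The axis is marked transcript length, but for named plastid members it is the length of a single annotated gene. The line is the median of nuclear genes in 30 bins of equal size, the band holds the middle 50% of them, and points are plastid members, filled where called. On the left nuclear genes slope downward (rho -0.56) and most plastid members of the lengths it spans lie below the line, and on the right the line is nearly flat (rho -0.05).

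In fas2-4 the plastid members were slightly lower nearly throughout, and few passed the test. Of 94 tested, 3 were called lower, or 3.19%, near the 2.96% of all genes called lower. With 1 row per copy pair, 3 of 83 were called lower and 80 were below 0. By edgeR, DESeq2 and limma 0 were called higher, and 0 had an unadjusted p under 0.05 in that direction, against 6.78% of all genes called higher. The log2 fold change was below 0 for 91 of the 94, with a median of -0.51, where 46.5% of all genes were below 0 and their median was +0.03. The fas2-4 group lay wholly below Col-0 for 34 members, against 14.2% of all genes, and wholly above it for 0, against 17.5%. An unadjusted p under 0.05 was seen for 24 members, against 25.4% of all genes, where 9.74% were called in either direction. DESeq2 called 7 members lower, against 5.49% of all genes, and the length correction 6, against 7% of all genes. Without fas2-4 replicate 1, which had the highest levels of psbM and rpl32 and the lowest of rpoB in its group, 23 of 97 members were called lower, against 13.8% of all genes, and without any one of the other libraries 0 or 1.

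Of the 3 members called lower in fas2-4, 2 were neighbouring ATP synthase genes, and ATCG00130 may be another by the order of identifiers. The gene atpB had 25, 28.4 and 29.5 CPM in Col-0 and 13.3, 17.7 and 15.2 CPM in fas2-4, without overlap. The log2 difference was -0.84 (SE 0.14, adjusted p = 0.00859), a 1.79-fold difference, and the call was lost without Col-0 replicate 3 (adjusted p = 0.0568). The gene atpE (ATCG00470, Pltd:52265-52663) had 6.27, 7.60 and 5.71 CPM in Col-0 and 4.49, 3.84 and 3.84 CPM in fas2-4 (-0.69, SE 0.17, adjusted p = 0.0361). ATCG00130, which is atpF, a membrane subunit of the same enzyme, or ycf4, a photosystem I assembly factor, had 3.25, 2.42 and 2.50 CPM and 1.69, 1.47 and 1.57 CPM (-0.79, SE 0.20, adjusted p = 0.0427). Both calls were kept without fas2-4 replicate 1 and lost without any one of the other 5 libraries. Of the ATP synthase genes, atpA (-0.69, adjusted p = 0.126) and atpI (-1.0, adjusted p = 0.0658) were not called, although none of the 4 overlapped between groups.

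The other roles in fas2-4 lay close together. Their medians ran from -0.25 for rbcL, the single Rubisco gene, to -0.60 for the 3 photosystem I genes. The 16S rRNA had 120, 120 and 88.8 CPM in Col-0 and 117, 72.4 and 93.6 CPM in fas2-4 (log2 fold change -0.22, SE 0.19, adjusted p = 0.55). The 23S rRNA had -0.30 (SE 0.25, adjusted p = 0.533), and rbcL had 14.6, 13.2 and 14.4 CPM and 9.92, 9.23 and 16.3 CPM (-0.25, SE 0.21, adjusted p = 0.54). These groups overlapped. The lowest value was that of rps14, with 0.442, 0.349 and 0.384 CPM in Col-0 and 0.179, 0.119 and 0.185 CPM in fas2-4, without overlap (-1.27, SE 0.34, adjusted p = 0.0517), on 5 to 8 counts per fas2-4 library. The genes psbI and psbM had -0.74 (SE 0.38, adjusted p = 0.271) and -0.57 (SE 0.37, adjusted p = 0.397), and ATCG00020 had -0.37 (SE 0.29, adjusted p = 0.503).

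The deposited TMM-scaled TPM divides by length, which allows levels to be compared between genes. By its mean, both 23S rRNA rows were among the 3 most abundant members in each experiment. The remaining one was a 16S row in experiment 1 and rpl32 in experiment 2. In Col-0 of experiment 1 the 23S rRNA row ATCG00950 had 644 ± 145 (SD, n = 3), the 16S row ATCG01210 had 366 ± 99.3, and rpl32 had 157 ± 23.6. In Col-0 of experiment 2 the values were 172 ± 45.8 for 23S, 108 ± 16.8 for 16S and 163 ± 19.8 for rpl32. The rRNA rows of the first experiment were thus well above those of the second, and rpl32 was not. The gene atpB was at 25.1 ± 2.9 and 27.1 ± 2.5, and psaB at 5.59 ± 2.1 and 0.852 ± 0.12. The tables were scaled separately, so these levels are set side by side without a test.

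Over both experiments, 1 member, atpB, was called lower in each mutant. Of the 83 members tested in both, 62 were below 0 in both. Of the members tested in each comparison, 75.6% were below 0 in the hira-1-labelled libraries and 96.8% in fas2-4. The count of 62 is to be read against these shares. Neither count was taken over all genes, so they do not show a response shared by the mutants. The difference between the 2 effects, fas2-4 against its Col-0 minus hira-1 against its Col-0, was tested in a fit of all 12 libraries. Of 101 members tested, 7 differed, 3 with a positive difference and 4 with a negative one, where 5.84% and 5.73% of all genes were called in these directions, 11.6% in all. Of the 101, 57 were below 0, against 47% of all genes, and 23 had an unadjusted p under 0.05, against 32.5%. The positive ones were both rows of the 16S rRNA (+2.07, SE 0.53, adjusted p = 0.0291 for ATCG00920) and psaB (+1.85, SE 0.52, adjusted p = 0.0399). The negative ones were psbI (-2.21, SE 0.53, adjusted p = 0.0221), psbM (-2.02, SE 0.56, adjusted p = 0.0377), the tRNA-length row ATCG00370 (-1.88, SE 0.53, adjusted p = 0.0398) and ATCG00040, whose length matched no gene (-1.26, SE 0.38, adjusted p = 0.0473). With the replicate block 11 members differed, against 32.1% of all genes. Leaving out 1 library left between 0 and 12, with 0 without Col-0 replicate 1 of either experiment or without fas2-4 replicate 3. The effect on atpB was not shown to differ (+0.49, SE 0.21, adjusted p = 0.133), nor that on rbcL (+0.77, SE 0.34, adjusted p = 0.138).

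Of the 6 nuclear genes for sigma factors, which direct the plastid-encoded polymerase to promoters, 5 fell in the hira-1-labelled libraries. Without the replicate block, counts in this paragraph stand against 6.8% of all genes called lower there and 2.96% in fas2-4. SIG2 (AT1G08540) went from 65.2 to 19.2 mean CPM (log2 fold change -1.76, SE 0.38, adjusted p = 0.029), SIGF (AT2G36990) had -1.08 (SE 0.18, adjusted p = 0.0212), SIG4 -1.42 and SIGC -0.85. In fas2-4, 0 of the 6 were called by edgeR and 1 had an unadjusted p under 0.05, with a median of -0.23, and of the differences between the 2 effects 1 was called, that of SIGE (+0.75, adjusted p = 0.0452). With the replicate block all 6 were called lower in experiment 1, where 27.3% of all genes were. The 3 phage-type organelle polymerase genes had a median of -0.81 in the hira-1-labelled libraries and 0 were called by edgeR, 2 having an unadjusted p under 0.05, and those 2 were called with the replicate block. Of 12 genes for proteins associated with the plastid polymerase, 2 fell in the hira-1-labelled libraries, PTAC2 and MURE, where the replicate block gave 6 lower and 1 higher (27.3% and 23.9% of all genes), and 3 fell in fas2-4, TRX z (-0.57, SE 0.11, adjusted p = 0.0164), PTAC6 and FLN1. With the length correction SIG2, SIGF, SIGC and SIG4 were called and SIGE, PTAC2 and MURE were not.

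Genes for plastid RNA processing and splicing gave a mixed picture. Of 12 genes for RNA processing and stability, 3 fell in the hira-1-labelled libraries and 1 rose, against 6.8% and 6.94% of all genes. With the replicate block, which called 27.3% of all genes lower and 23.9% higher, 7 were lower and 1 higher. HCF107 (AT3G17040), which stabilises transcripts of the psbB operon, went from 75.1 to 27.0 mean CPM (-1.47, SE 0.24, adjusted p = 0.0199), and PGR3 and RIF10 fell by 1.02 and 1.0. The editing factor gene MORF9 rose (+0.78, SE 0.19, adjusted p = 0.0367). With the length correction HCF107 was called and PGR3, RIF10 and MORF9 were not (adjusted p = 0.197, 0.131 and 0.069), and the median of the 12 went from -0.53 to -0.18. In fas2-4, CP29, an RNA-binding protein gene, was called lower (-0.53, SE 0.14, adjusted p = 0.0473), and all 12 were below 0. Of all genes, 2.96% were called lower there and 46.5% were below 0. Of 7 genes for plastid intron splicing, CFM3A and CFM3B fell in the hira-1-labelled libraries, by 2.35 and 2.47, where 6.8% of all genes were called lower. With the replicate block all 7 were called lower, again against 27.3% of all genes. In fas2-4, 0 of them were called by edgeR and 0 had an unadjusted p under 0.05.

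The nuclear genes for partner subunits of the plastid-encoded complexes were near 0 in one comparison and below 0 in the other. In the hira-1-labelled libraries their median log2 fold change was +0.03 over 20 tested, or -0.28 with the length correction, with PSAD-1, PETE1 and NdhN called lower and ATPD, for the delta subunit of the ATP synthase, called higher (+0.75, SE 0.20, adjusted p = 0.0427). ATPD was not called with the length correction (adjusted p = 0.06). Without the correction, edgeR called 6.8% of all genes lower and 6.94% higher. With the replicate block 3 were lower and 6 higher, against 27.3% and 23.9% of all genes. In fas2-4 all 21 were below 0, with a median of -0.39, and RBCS3B and RBCS1A, for the small subunit of Rubisco, were called lower (-0.61 and -0.58). Of all genes, 46.5% were below 0 and 2.96% were called lower. The summed level of the 21 was 99311 to 112710 CPM in Col-0 and 69151 to 84842 CPM in fas2-4, without overlap. The RBCS genes are near-identical copies, so reads may be split between them.

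Mitochondrial genes, the other organelle's transcripts, held 0.00395% to 0.0119% of counts. Their share was lower in the hira-1-labelled libraries without overlap (0.00929% ± 0.0023 in Col-0 and 0.00623% ± 0.0014) and overlapped in experiment 2 (0.0049% ± 0.0013 in Col-0 and 0.0057% ± 0.0023 in fas2-4). Of 20 mitochondrial rows tested in experiment 1, 2 were called lower, against 6.8% of all genes. With the replicate block 1 was lower and 3 were higher, against 27.3% and 23.9% of all genes. The median log2 fold change was +0.18, which the length correction reversed to -0.29. Of 24 in experiment 2, 0 were called by edgeR or DESeq2 and 0 had an unadjusted p under 0.05, and the median was +0.08. The plastid medians were -0.35 and -0.51.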

How the data were processed

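For each experiment the authors deposited gene-level counts and a second table of TMM-scaled TPM, treated here as a score. Per the submitters' processing notes, fastp 0.23.4 and HISAT2 2.2.1 were used. How reads were counted, by strand or with several matches, is not given in the sources used here. All 24 value columns were used. Members and gene lists were chosen with earlier results of these data known.

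Counts were tested with edgeR 4.0.16 (R 4.3.3) by the robust quasi-likelihood test after filterByExpr (minimum count 10) and TMM scaling, separately in each experiment, and over all 12 libraries for the difference. The SE is the size of the log2 fold change divided by the root of the F statistic. The procedure was run on simulated counts, drawn independently for each library with the same dispersion for every gene. These had no length trend or other shift shared between genes, so that run does not cover such shifts in the real libraries. Alternatives were other scalings, DESeq2 1.42.0, limma 3.58.1 on log2(TMM-scaled TPM + 1) and + 0.1, no filter, library sizes from nuclear genes, a replicate block, a lowess correction for gene length (span 0.3) and leaving out each library. Lengths came from the ratio of the deposited counts to the deposited TMM-scaled TPM. In each library at least 99.4% of nuclear genes with 500 or more counts came within 0.5% of the annotated exon length.

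Same-numbered libraries deviated together in experiment 1 (correlations of deviations 0.326, 0.595 and 0.693) and not in experiment 2 (-0.066, 0.236 and -0.022), so the replicate numbers were taken as pairs only in experiment 1, from the data and not from the labels. Over the plastid members alone these correlations were -0.081, 0.207 and 0.080 in experiment 1 and 0.582, 0.023 and 0.392 in experiment 2, so the pairing rests on the table as a whole. The text names rbcL and both rows that are psbA or psbD, the most counted member of each role, called members (up to 10 per direction, 5 for the difference), the 3 with the largest TMM-scaled TPM per experiment, and up to 4 called genes of each nuclear list. The rows rpoC1, psbB, psbC, psaJ, psbK, atpI, ycf2, ATCG00940 and the 4.5S rRNA were added after their values were seen, as neighbours or further called members.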

Additional observations from a re-analysis of the deposited data

Results flagged for a closer look

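For 7 plastid rows the effect in fas2-4 and the effect in the libraries labelled hira-1 differed in the fit of all 12 libraries. Signed as fas2-4 minus hira-1, the differences in log2 fold change were +2.07 for each 16S rRNA row (2.0683 for ATCG00920 and 2.07137 for ATCG01210), +1.85 for psaB, -2.21 for psbI, -2.02 for psbM, -1.88 for the tRNA-length row ATCG00370 and -1.26 for ATCG00040. The 16S rRNA and psaB were called lower and psbI and psbM higher in the libraries labelled hira-1, while in fas2-4 none of these was called. ATCG00370 had 10, 10 and 10 counts in Col-0 of experiment 1, 13, 18 and 20 in the libraries labelled hira-1, 14, 8 and 9 in Col-0 of experiment 2 and 5, 5 and 7 in fas2-4, so its difference rests on few reads. ATCG00040 had a log2 fold change of +0.78 (adjusted p = 0.115, and 0.00594 with the replicate block) in the libraries labelled hira-1 and -0.47 (adjusted p = 0.205) in fas2-4. With the gene length correction the differences of psbM and ATCG00370 were not called (adjusted p = 0.0564 and 0.178), and those of the other rows were. The 2 experiments differ in depth and in the level of plastid RNA in Col-0, and what part this has in the differences was not tested.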

How the results depend on the processing

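Member calls in the libraries labelled hira-1 (24) moved by over 1.5 times with the length correction and replicate block together (50) and ranged from 0 to 27 on leaving out 1 library. Over all genes the main fit called 2575 of 18739, and the length correction and block together 7206. Leaving out 1 library gave 19 to 5021. In fas2-4 (3) they were 7 by DESeq2, 6 with the length correction, 10 with it and the block, 8 by limma with either pseudocount, and 0 to 23 on leaving out 1 library. Over all genes the main fit called 1948 of 20004, the length correction 3328 and that with the block 3080. DESeq2 called 2923 of 26034 genes, and limma 1926 with pseudocount 1 and 1994 with 0.1. Leaving out 1 library gave 643 to 5661. For the difference (7) they were 11 with the length correction, 15 with it and the block, 11 by limma with pseudocount 1, 11 with the replicate block, and 0 to 12 on leaving out 1 library. Over all 20152 genes these fits called 2888, 5878, 2573 and 6461, and the main fit 2331. Leaving out 1 library gave 723 to 4844. In fas2-4 the replicate numbers were not taken as pairs, and with the replicate block 2 members were called, with 1465 of 20004 genes in all. The median member difference of -0.35 in hira-1 became -0.88 with the length correction and -0.94 with the block added (-0.60 to -0.24 on leaving out 1 library). In fas2-4 it went from -0.51 to -0.38 by limma with pseudocount 1 (-0.56 to -0.44). The median of the differences, -0.19, reversed to +0.20 with the length correction, +0.22 with the block added and 0.041 without hira-1 replicate 3 (-0.22 to 0.041). The log2 ratio of the plastid shares in hira-1, -1.47, was -0.46 without rows that have a near-identical copy, which hold the rRNAs. For the named members, 1237 of 1415 values were graded the same, 124 weaker, 54 stronger and 0 reversed. Signs did change for some uncalled values, which that grade did not count as reversed. ATCG00140 had +0.21 in hira-1 and -0.55 with the length correction. The causes were not tested.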
